A study of Danio rerio with 6 samples.

Results

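Wild-type zebrafish embryos of the AB strain at 36 h post fertilization (T3) were compared by RNA sequencing with embryos at 10 h post fertilization (T1), the end of gastrulation. Each stage had 2 libraries made from whole embryos, so that 4 of the 6 libraries of the series were compared. The 2 libraries of the stage between them, 24 h post fertilization (T2), were used only to place changes in time. All embryos were untreated, and their chorions were removed by hand before freezing. The embryos of a stage were divided at random into 2 groups, and no source used here says that these came from separate clutches. The *p* values below therefore reflect no more than how these libraries vary, and that variation may be technical. The comparison covered all 30111 genes of the gene table and, in a separate fit, all 9029 transcripts of the lncRNA table, of which 3093 are annotated lncRNAs with equal values in both tables and 5936 are assembled transcripts with TCONS identifiers.

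Between these stages the embryo leaves gastrulation, in which the germ layers and body axes are laid down, and builds its organs. The somites form striated muscle, the neural tube forms neurons, the heart starts to beat, blood circulates, and pigment, lens, cartilage and hatching gland cells differentiate. The early embryo also carries RNA that the mother stored in the egg, which is replaced as the genome of the embryo is transcribed. Long noncoding RNAs (lncRNAs) are transcripts without a long coding frame, and many are transcribed beside or opposite protein-coding genes.

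Levels are given as RPKM, in which reads are scaled to the exon length of the gene and to the depth of the library. The libraries held 49343474 and 51846237 reads in genes at T3, against 43611332 and 45275403 at T1. For a gene of 1 kb, 3 reads correspond to 0.0579 to 0.0688 RPKM in these 4 libraries, and a gene without reads may lie anywhere below that by counting error alone. The T1 libraries differed more from each other than the T3 libraries did: over 12127 genes, the SD of the log2 difference between the 2 libraries was 0.152 at T3 and 0.39 at T1, and 10 genes at T3 and 301 at T1 stood at least 2-fold apart. The median of 12230 well expressed genes was lower at T3 by 0.119 on the log2 scale, and the differences given below include this shift. With 2 libraries against 2, an exact permutation test cannot give a *p* below 0.333, and calls depend on the error that limma pools over genes. In bulk RNA, fewer cells of a type and less RNA per cell cannot be told apart. The library kit marks the strand, but no source used here says whether the counting did, and a gene therefore cannot be told apart from its antisense partner either.

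Of 25184 genes tested with limma on log2(RPKM + 0.5), 6293 (25%) had an adjusted *p* (Benjamini-Hochberg) under 0.05 and more than a 2-fold difference, and are referred to as called. Counts given at an unadjusted *p* keep the same minimum fold, and coordinates are of the GRCz11 build. At T3, 4112 were higher (16.3%) and 2181 were lower (8.66%). The libraries of the stages did not overlap for any of these 6293 genes, as they did not for 78.2% of all genes tested. The median log2 difference was 1.77 among the genes called higher, -1.35 among those called lower and 0.00 over all genes tested. On this scale 694 genes were more than 8-fold higher and 93 more than 8-fold lower. Of the genes called higher, 671 were under 0.1 RPKM in both T1 libraries, and of those called lower, 107 were under 0.1 RPKM in both T3 libraries. The balance of directions depends on scaling. Higher genes made up 65.3% of the calls, 52% after quantile normalization (3310 higher, 3060 lower) and 73.4% after median centring (4642 higher, 1682 lower). With T3 replicate 1 or T3 replicate 2 left out, when the spread comes from the T1 libraries alone, 2176 and 2090 genes were called higher and 663 and 621 lower.

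**Figure D1:**
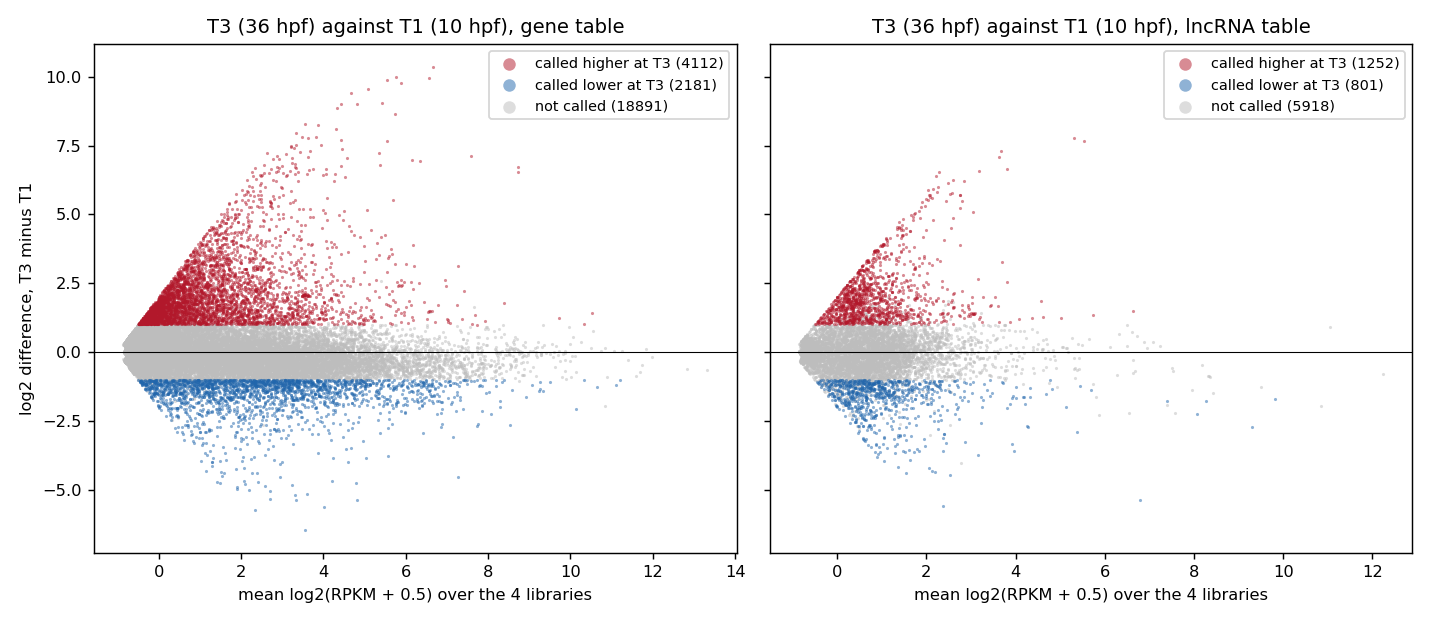
Each point is a feature tested, with its mean log2(RPKM + 0.5) over the 4 libraries on the x axis and its log2 difference, T3 minus T1, on the y axis, for the gene table (left) and the lncRNA table (right). Red points were called higher at T3 (4112 genes, 1252 lncRNA-table transcripts), blue points lower (2181 and 801) and grey points were not called. The rises reach larger differences than the falls in both tables.

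The changes moved a large part of the sequenced RNA. Genes called higher took 29.95% and 31.27% of the reads in genes in the T3 libraries, against 4.44% and 3.18% in the T1 libraries. Genes called lower took 7.65% and 7.46% at T3, against 21.2% and 22.7% at T1. The 694 genes more than 8-fold higher alone took 18.2% and 19.4% of the reads at T3 and 0.640% and 0.394% at T1. The 10 genes with the most reads in each library took 11.5% and 12.1% of the reads at T3, against 8.35% and 8.29% at T1. Ranked instead by mean RPKM, the first 10 genes at T3 included the muscle genes *tpma*, *tnnt3b*, *myhz1.1* and *zf-e68*. *tpma*, a tropomyosin gene, had 4217 and 4401 RPKM at T3, against 53.4 and 30.5 at T1. *tnnt3b*, a fast troponin T gene, had 4028 and 4175 RPKM at T3, against 24.9 and 77.1 at T1. In the other direction, *hmga1a*, a chromatin protein gene, and *eef1a1l1*, a translation elongation factor gene, fell by 1.19 and 1.03 on the log2 scale. LOC110440091, which ranked high at T1, had 884 and 995 RPKM at T3 and 1205 and 10790 at T1 and was not called (adjusted *p* = 0.18, limma).

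The stage labels were checked against 13 textbook markers. All 7 markers of the later embryo (*myhz1.1*, *myl7*, *hbbe1.1*, *elavl3*, *cryaa*, *tyr* and *fabp7a*) were called higher at T3. Of 6 markers of the end of gastrulation, *msgn1*, *her1*, *tbx16* and *noto* were called lower. The others were not called. The hatching gland gene *ctslb* had 104 and 85.7 RPKM at T3 against 70.8 and 58.6 at T1, and the organizer gene *gsc* had 0.476 and 0.473 RPKM at T3 against 0.703 and 2.02 at T1.

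Genes of contracting muscle showed the largest rises. Of 61 sarcomere genes, 54 rose and none fell by limma at either the adjusted or the unadjusted *p* (median log2 difference 4.42, 0.00 over all genes), and of 33 genes of muscle calcium and energy handling 30 rose and none fell at either *p* (median 5.18, or 5.19 with 2 genes without reads at T1 set to their lower bound). The summed level of the sarcomere genes was 26350 and 28020 RPKM in the T3 libraries, against 357 and 257 in the T1 libraries. *myhz1.1*, a fast myosin heavy chain gene on chromosome 5 (32298624 to 32309131), had 3490 and 3755 RPKM at T3, against 2.13 and 2.44 at T1. Its log2 difference of 10.35 (SE 0.11, adjusted *p* = 6.07e-05, limma) was the largest of all genes called. The fast troponin genes *tnnt3a* and *tnni2a.4*, the myosin light chain genes *mylpfa* and *myl1* and the myosin genes *myhz1.2* and *myhz2* followed with differences of 9.01 to 9.98. The myosin genes are near copies of each other, and their single values are uncertain because a read can match several of them. *atp2a1*, the calcium pump of the fast sarcoplasmic reticulum (chromosome 3, 26145034 to 26154478), had 907 and 1045 RPKM at T3, against 1.34 and 1.39 at T1 (log2 difference 9.03, SE 0.12). *pvalb1*, a calcium-buffering parvalbumin gene, had 498 and 481 RPKM at T3, against 0.495 and 0.417 at T1. The muscle creatine kinase genes *ckma* and *ckmb*, which buffer ATP in muscle, rose by log2 differences of 7.79 and 7.72.

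The regulators of the muscle lineage did not move as one group. Of 32 myogenic regulators, 11 rose and 5 fell (median 0.20). *smyd1a*, a methyltransferase gene needed for myofibril assembly, had 26.6 and 28.8 RPKM at T3, against 0.147 and 0.326 at T1. *pax7a*, a factor of muscle and crest progenitors, had 14.7 and 14.7 RPKM at T3, against 1.87 and 0.952 at T1, and *mef2ca*, an activator of sarcomere genes, rose by 2.82 on the log2 scale. *myf5*, a determination factor of early myoblasts, had 2.02 and 2.32 RPKM at T3, against 21.7 and 16.3 at T1, and the somite factor gene *meox1* fell by 2.89 on the log2 scale. The groups do not overlap for any of these 5 genes. *myod1* had 4.45 and 3.88 RPKM at T3, against 6.47 and 3.08 at T1, and *myog* had 2.17 and 1.78 at T3, against 1.79 and 0.860 at T1. The groups of both overlap, and neither was called (adjusted *p* = 0.83 and 0.22, limma). When T3 replicate 1 or T3 replicate 2 was left out, 6 and 5 of the regulators were called higher and 3 lower in each, and 3 were lower without T1 replicate 2.

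Heart genes split in a like way. Of 35, 19 rose and 5 fell (median 1.60), and without T3 replicate 1 or T3 replicate 2, 13 and 12 were called higher and 4 and 3 lower. *myl7*, the cardiac regulatory myosin light chain gene, had 15.6 and 14.5 RPKM at T3, against 0.0894 and 0.129 at T1. *vmhc*, the ventricular myosin gene, had 20.3 and 19.6 RPKM at T3, against 0.218 and 0.0479 at T1. The stages do not overlap for *myl7* or *vmhc*, which holds for every gene called. *cmlc1*, another cardiac light chain gene, and *cav3*, a muscle caveolin gene, rose by log2 differences of 5.53 and 5.03. The genes that fell act early in the heart field. They include the transcription factor genes *nkx2.7* (1.70 and 1.53 RPKM at T3, 9.89 and 11.7 at T1) and *gata5* (3.93 and 4.15 at T3, 18.1 and 20.9 at T1) and the Nodal co-receptor gene *tdgf1*.

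**Figure D2:**
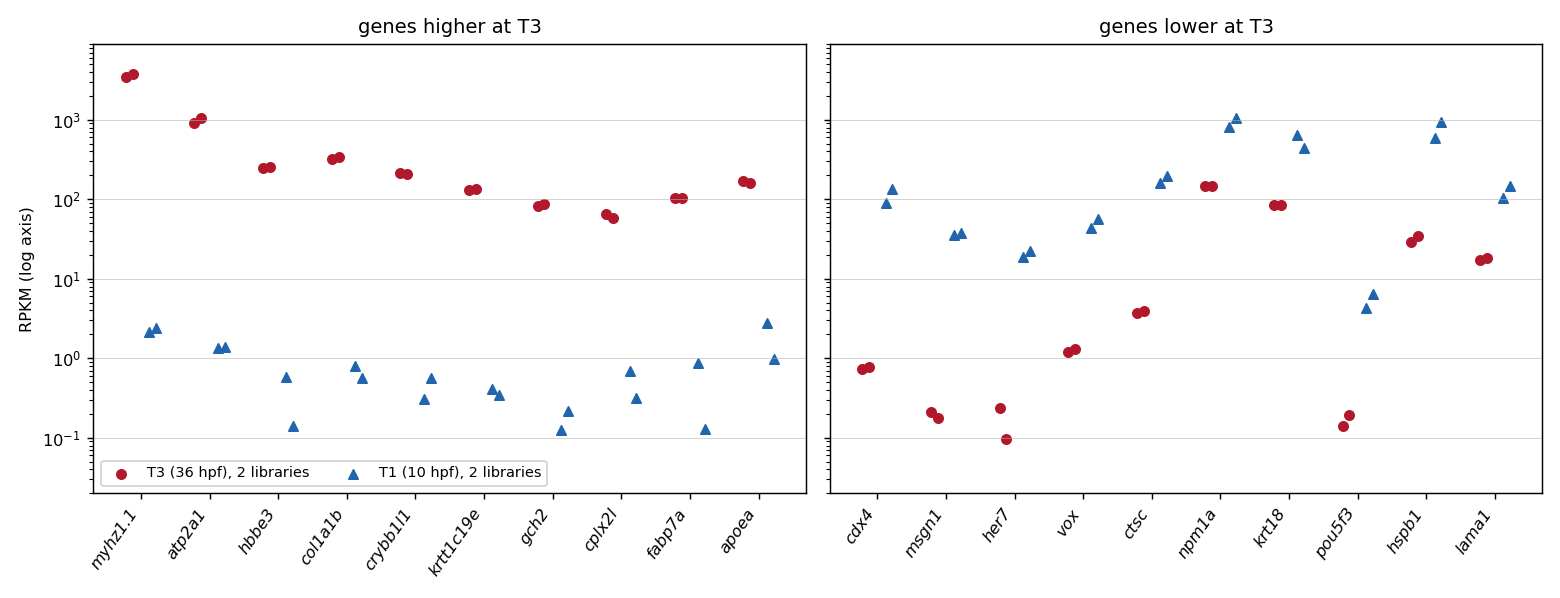
RPKM on a log axis for 10 genes higher at T3 (left) and 10 genes lower at T3 (right), with 1 point per library (T3 circles, T1 triangles). The libraries of the stages do not overlap for any of the 20 genes; *myhz1.1* stands at 3490 and 3755 RPKM at T3 and at 2.13 and 2.44 at T1, and *cdx4* at 0.741 and 0.775 at T3 and at 90.02 and 133.5 at T1.

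Genes that pattern the gastrula fell. Of 50, 32 were lower and only *eomesa* was higher (median -1.61). *cdx4*, a caudal homeobox gene of the tail end of the embryo (chromosome 14, 32961703 to 32965158), had 0.741 and 0.775 RPKM at T3, against 90.02 and 133.5 at T1. Its log2 difference of -6.45 (SE 0.21, adjusted *p* = 0.00021, limma) was the largest fall of all genes called. The ventral repressor genes *vox* and *ved* fell by 4.84 and 4.70 on the log2 scale. *chd*, the organizer's secreted BMP antagonist chordin, which is outside this list, had 0.577 and 0.649 RPKM at T3, against 22.2 and 45.5 at T1. *eomesa*, a T-box gene of early mesendoderm that is also known from the forebrain, had 3.35 and 3.45 RPKM at T3, against 0.0926 and 0.0892 at T1. The 2 T1 libraries differed here, replicate 1 minus replicate 2 having a median of -0.38 on the log2 scale. In fits without T3 replicate 1 or T3 replicate 2, 20 and 19 were called lower and 1 higher in each.

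Genes of the presomitic mesoderm, from which somites bud off in a clock-like rhythm, mostly fell as well. Of 36, 21 fell and 3 rose (median -1.11). *msgn1*, a mesogenin gene of the unsegmented mesoderm (chromosome 4, 306283 to 308006), had 0.212 and 0.179 RPKM at T3, against 35.2 and 37.4 at T1. *her7*, a component of the segmentation clock, had 0.240 and 0.0978 RPKM at T3, against 18.6 and 22.4 at T1. The stages stand far apart in both cases, and the T-box gene *tbx6* and the adhesion gene *pcdh8* fell by 4.53 and 4.91 on the log2 scale. *her15.1*, *tbx18* and *nrarpb* rose, and *her15.1* and *nrarpb*, both tied to Notch signaling, are also expressed outside the somites. Without T3 replicate 1 or T3 replicate 2, 12 and 13 genes were called lower, and 1 and 0 higher (for the 0, 2 higher at an unadjusted *p* under 0.05 by limma).

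Signaling genes moved in both directions. Of 75 Wnt genes, 12 rose and 18 fell. The ligand genes *wnt8a* and *wnt11*, which act on the body axis and on cell movements of gastrulation, fell by 3.98 and 2.24 on the log2 scale, and the Wnt target gene *sp5l* had 0.576 and 0.518 RPKM at T3, against 17.57 and 26.02 at T1. The ligand gene *wnt7aa* and the receptor gene *fzd1* rose by log2 differences of 2.38 and 2.4. The share of Wnt genes called higher, 16%, was near the 16.3% of all genes, while the share called lower was 24% against 8.66%. Of 75 BMP, Nodal and TGF-beta genes 11 rose and 14 fell, and the falls included the ligand gene *bmp7a* (0.241 and 0.355 RPKM at T3, 5.13 and 5.93 at T1) and the feedback gene *szl*, while the rises included *tgfb1a* and the signal transducer *smad3b*. Of 56 FGF genes 7 rose and 14 fell, the falls including the ligand genes *fgf8a* (1.25 and 1.15 RPKM at T3, 10.1 and 9.27 at T1) and *fgf17* and the feedback inhibitor gene *spry1*. The shares that rose, 14.7% of the BMP, Nodal and TGF-beta genes and 12.5% of the FGF genes, were under that of all genes. The shares that fell were 18.7% and 25%. Of 30 Hedgehog genes 2 rose and 3 fell, and these shares of 6.67% and 10% were under and near those of all genes. Of 34 genes of retinoic acid and thyroid signaling 8 rose and 8 fell (23.5% each). Of 48 Notch genes, 12 rose (25%) and 5 fell (10.4%). The ligand gene *dlb* had 27.7 and 27.8 RPKM at T3, against 6.41 and 4.48 at T1, and the target genes *her4.4* and *her4.2* rose by 2.18 and 2.14, while the clock genes *her7*, *her11* and *her1* fell. With T3 replicate 1 or T3 replicate 2 left out, 5 and 6 Wnt genes were called higher and 6 and 5 lower, 3 and 3 BMP, Nodal and TGF-beta genes higher and 6 and 4 lower, 2 and 2 FGF genes higher and 6 and 5 lower, and 6 and 4 Notch genes higher and 3 and 3 lower. In the same fits, 2 and 2 Hedgehog genes were called higher and 1 and 1 lower (5 lower without T1 replicate 1), and 3 and 3 retinoic acid and thyroid genes higher and 2 and 2 lower. The FGF counts also moved with the processing, with 4 genes higher and 15 lower after quantile normalization, 15 and 16 with a pseudocount of 0.1, 4 and 13 with a pseudocount of 1, and 16 and 16 by limma voom on recovered reads. After quantile normalization 7 Wnt genes were called higher and 20 lower, and 5 Hedgehog genes lower. Hedgehog genes called higher numbered 5 with a pseudocount of 0.1 and 4 by voom, and 9 BMP, Nodal and TGF-beta genes were lower with a pseudocount of 1.

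Among factors of the early pluripotent embryo and stored egg products, more genes fell than rose. Of 26 pluripotency and zygotic activation factors, 13 fell and 2 rose (median -1.04). *pou5f3*, a POU factor of zygotic genome activation, had 0.141 and 0.194 RPKM at T3, against 4.33 and 6.52 at T1. *sall4*, a zinc finger gene of pluripotent cells, had 9.68 and 9.58 RPKM at T3, against 78.1 and 112.6 at T1. The groups do not overlap for either, and the homeobox gene *irx7* fell by 3.79 on the log2 scale. Of 36 maternal and germ plasm genes, 13 fell and 1, *nanos1*, rose (median -0.84, or -0.87 with 2 genes without reads at T3 at their bound). *npm2b*, an egg nucleoplasmin gene, had 1.51 and 1.24 RPKM at T3, against 23.6 and 40.4 at T1. *ddx4*, the germ cell gene vasa, had 0.531 and 0.665 RPKM at T3, against 2.75 and 6.35 at T1. *cyp11a1*, which starts steroid synthesis, fell by 4.77 on the log2 scale. On the log2 scale, T1 replicate 1 minus T1 replicate 2 had a median of -0.24 over the maternal genes. Over the pluripotency and activation factors this median was -0.33. When T3 replicate 1 or T3 replicate 2 was left out, 3 and 2 maternal genes were called lower and 0 and 0 higher (10 and 10 lower and 1 and 1 higher at an unadjusted *p* under 0.05 by limma), and 10 and 11 pluripotency and activation factors lower and 1 and 1 higher. The maternal genes called lower numbered 22 with a pseudocount of 0.1, 8 with a pseudocount of 1, 21 by limma voom on recovered reads and 5 of 12 tested with a filter at 1 RPKM.

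Most genes of neurons and synapses rose. Of 74 genes of neurons and synapses, 57 rose and 1 fell (median 2.64, or 2.68 with 1 gene without reads at T1 at its bound). *cplx2l*, a complexin gene of synaptic vesicle fusion, had 64.9 and 58.7 RPKM at T3, against 0.693 and 0.317 at T1. *gng3*, a G protein subunit gene, and *kif5aa*, a kinesin gene of axonal transport, rose by log2 differences of 5.49 and 5.37. The gene that fell was *inaa*, an intermediate filament gene, with 1.63 and 1.79 RPKM at T3, against 9.30 and 9.87 at T1. Of 150 transmitter receptor and channel genes, 58 rose and 4 fell (median 0.73, or 0.75 with 2 genes without reads at T1 at their bound). The largest rises among them were of *cacna1sa* and *cacna1sb*, which encode the calcium channel of skeletal muscle, and the next was of the neuronal sodium channel gene *scn8aa* (5.003 and 5.013 RPKM at T3, 0.105 and 0.0657 at T1). Of 57 neural progenitor and proneural genes, 21 rose and 6 fell (median 0.42). *ascl1a*, a proneural factor, had 15.4 and 14.6 RPKM at T3, against 1.33 and 1.25 at T1, while *her5*, which marks the midbrain-hindbrain region early, had 0.411 and 0.294 RPKM at T3, against 14.7 and 16.3 at T1. Of 26 glia and myelin genes, 14 rose and 4 fell (median 1.45, or 1.81 with 1 gene without reads at T1 at its bound). *fabp7a*, the radial glia fatty acid binding protein, had 103 and 104 RPKM at T3, against 0.867 and 0.128 at T1, and *egr2b*, which sets hindbrain segments early and Schwann cell myelination later, had 0.0554 and 0.211 at T3, against 11.3 and 13.2 at T1. In fits without T3 replicate 1 or T3 replicate 2, 39 and 39 receptor and channel genes were called higher and 1 and 1 lower, 16 and 15 progenitor and proneural genes higher and 2 and 2 lower, and 8 and 8 glial genes higher and 1 and 1 lower. The receptor and channel counts were 98 higher and 6 lower by limma voom on recovered reads (median 2.65), 95 and 4 with a pseudocount of 0.1 (median 1.71) and 37 and 4 with a pseudocount of 1 (median 0.45). By voom 10 progenitor and proneural genes were lower, and after median centring 2 glial genes were.

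In the eye, the lens stood out. Of 50 lens genes, mostly crystallins, which fill the transparent fiber cells, 39 rose and 1 fell (median 3.36). Since 11 of them had no reads at T1, their fitted differences depend on the pseudocount, and with their lower bounds in place the median was 3.44. *crybb1l1*, a beta crystallin gene, had 213 and 209 RPKM at T3, against 0.308 and 0.573 at T1. *crygm2d8*, a gamma crystallin gene, had 49.3 and 51.4 RPKM at T3 and no reads in either T1 library, which makes it at least 468-fold higher when 3 reads per T1 library are taken as the floor. The groups stand apart in both, and the gamma crystallins are near copies whose single values are uncertain. The lens gene that fell was *tdrd7a*, which also acts in germ granules. Of 38 retina genes, 20 rose and 6 fell (median 1.1). *atoh7*, which starts retinal ganglion cells, had 7.55 and 7.29 RPKM at T3, against 0 and 0.0861 at T1, whereas *rx3* and *six7*, eye field genes of the early embryo, fell by 2.82 and 3.36 on the log2 scale. Of 27 inner ear and otolith genes, 10 rose and 5 fell. The rises include *otomp*, an otolith matrix gene, and *myo7aa*, a hair cell myosin gene, and the falls include *stm*, the otolith starmaker gene (54.3 and 52.7 RPKM at T3, 188 and 328 at T1). Without T3 replicate 1 or T3 replicate 2, 9 and 6 retina genes were called higher and 2 and 2 lower, 5 and 6 ear genes higher and 1 and 1 lower, and 0 and 0 lens genes lower (0 and 1 at an unadjusted *p* under 0.05 by limma). Without T1 replicate 1 or T1 replicate 2, 2 and 0 lens genes were called lower. With a pseudocount of 1, 13 retina and 5 ear genes were called higher.

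Blood and vessel genes changed in both directions, with more of them rising than falling. Of 34 erythroid genes, 16 rose and 6 fell (median 0.87, or 0.996 with 2 genes without reads at T1 at their bound), and their summed level was 1548 and 1525 RPKM at T3, against 99.0 and 87.0 at T1. *hbbe3*, an embryonic beta globin gene (chromosome 12, 20339469 to 20340543), had 251 and 258 RPKM at T3, against 0.587 and 0.141 at T1. *hbae3*, an embryonic alpha globin gene, had 206 and 240 RPKM at T3, against 1.87 and 1.28 at T1. The globin genes are close copies, so that their single values are uncertain. *lmo2*, a cofactor of the first blood progenitors, had 1.762 and 2.097 RPKM at T3, against 14.8 and 4.33 at T1, and *klf17* and *gfi1aa*, erythroid transcription factors, fell by 2.79 and 2.32 on the log2 scale. *klf17* is also in the hatching gland list, and RNA of whole embryos cannot assign its fall to 1 tissue. Of 43 endothelial genes, 24 rose and 7 fell (median 1.07). *cdh5*, the vascular cadherin, had 7.97 and 7.86 RPKM at T3, against 0.361 and 0 at T1, and the scavenger receptor gene *mrc1a* of veins and lymphatics had 6.30 and 6.47 at T3, against 0.0480 and 0 at T1. The genes that specify this lineage, *npas4l* and *etv2*, fell by 2.34 and 1.72, as did the VEGF receptor gene *kdr* (2.07 and 2.27 RPKM at T3, 11.1 and 10.9 at T1). T1 replicate 1 minus T1 replicate 2 had a median of 0.27 over the endothelial genes, on the log2 scale. Of 37 myeloid and immune genes, 14 rose and 3 fell (median 0.74, or 0.85 with 2 genes without reads at T1 at their bound). *mfap4*, a macrophage marker, rose by 4.15 and the lysozyme gene *lyz* by 3.16, while *lcp1*, an actin-bundling gene of leukocytes, had 10.24 and 9.303 RPKM at T3, against 93.0 and 34.1 at T1. With T3 replicate 1 or T3 replicate 2 left out, 8 and 8 endothelial genes were called higher and 2 and 2 lower, 1 and 1 erythroid genes lower, and 1 and 1 myeloid genes lower. With a pseudocount of 1, 3 erythroid genes were called lower, and with one of 0.1, 5 myeloid genes were.

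Pigment cell genes rose, and the specifiers of the neural crest, the migratory population from which pigment cells and part of the head skeleton arise, were divided. Of 35 pigment genes, 22 rose and 1 fell (median 2.2). *gch2*, which starts pteridine synthesis in yellow pigment cells, had 82.7 and 88.4 RPKM at T3, against 0.125 and 0.217 at T1. *tyrp1b* and *dct*, both of melanin synthesis, rose by log2 differences of 5.99 and 5.50. Of 30 crest specifiers, 6 rose and 7 fell (median 0.04). The share that rose, 20%, was near the 16.3% of all genes, while the share that fell was 23.3% against 8.66%. *foxd3*, a factor of premigratory crest, had 4.101 and 3.302 RPKM at T3, against 14.5 and 11.2 at T1, and *snai1b*, a gene of cell migration, fell by 2.38, while *tfap2e* and *tfap2b* rose by 2.48 and 2.17. When T3 replicate 1 or T3 replicate 2 was left out, 4 and 3 crest specifiers were called lower, and without T1 replicate 1, 2 pigment genes were.

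More matrix and skeletal genes rose than fell. Of 116 genes of collagens, laminins and other matrix, 58 rose and 17 fell (median 1.31, or 1.39 with 1 gene without reads at T1 at its bound). *col1a1b*, a chain of the fibrillar type I collagen of skin and fins (chromosome 12, 3095617 to 3133500), had 318 and 336 RPKM at T3, against 0.807 and 0.573 at T1. *tnw*, a tenascin gene, had 120 and 124 RPKM at T3, against 0.279 and 0.137 at T1. *lama1*, a laminin chain of the first basement membranes, went the other way, with 17.3 and 18.3 RPKM at T3, against 103.6 and 146 at T1. The groups of all 3 genes stand apart, and the elastic fiber gene *efemp2b* and the collagen gene *col15a1a* also fell, by 3.91 and 2.59 on the log2 scale. Of 45 genes of cartilage and fin skeleton, 27 rose and 3 fell (median 1.85, or 1.90 with 1 gene without reads at T1 at its bound). *col11a2*, a cartilage collagen gene, had 57.5 and 61.7 RPKM at T3, against 0.327 and 0.242 at T1, and *and1*, which forms the fibrils of the fin fold, had 44.2 and 47.8 at T3, against 0.655 and 0.714 at T1. *sp7*, an osteoblast factor gene, was among the 3 that fell, with 0.425 and 0.247 RPKM at T3, against 3.25 and 6.47 at T1. Of 28 notochord and floor plate genes, 11 rose, led by the caveolar coat gene *cavin1b* (169 and 147 RPKM at T3, 2.18 and 0.691 at T1), and 6 fell, among them the notochord identity genes *noto* and *ta*. Of 83 cadherins and protocadherins, adhesion molecules of neurons and vessels among others, 60 rose and 4 fell (median 2.08). Several protocadherins have equal values, as *pcdh2ab6* and *pcdh2ab7* do, and share reads. In fits without T3 replicate 1 or T3 replicate 2, 40 and 39 matrix genes were called higher and 8 and 8 lower, 17 and 17 cartilage and fin genes higher and 2 and 2 lower, 6 and 6 notochord genes higher and 2 and 3 lower, and 37 and 37 cadherins higher and 2 and 2 lower.

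Epithelial genes changed in both directions. Of 42 genes of the enveloping layer, the outer covering of the early embryo, and of the epidermis, 12 rose and 13 fell (median -0.44). The keratin gene *krt18* had 84.0 and 84.2 RPKM at T3, against 648 and 449 at T1, and *krt92* had 49.3 and 45.4 at T3, against 377 and 227 at T1. The keratin gene *krtt1c19e* of basal epidermis (chromosome 19, 5339364 to 5345930) had 133 and 133 RPKM at T3, against 0.407 and 0.350 at T1, and the calcium-binding gene *icn* rose by 4.38. Type I keratins thus stand on both sides of the comparison, with no overlap of the stages. Over the epithelial genes, T1 replicate 1 minus T1 replicate 2 had a median of 0.39 on the log2 scale. Of 25 genes of ionocytes, the ion-transporting skin cells, and mucous cells, 11 rose and 3 fell (median 0.84). The sodium pump genes *atp1a1a.2* and *atp1b1b* rose by 5.46 and 5.29, and *foxi1*, which specifies ionocytes, had 1.51 and 1.28 RPKM at T3, against 5.19 and 6.26 at T1. Of 10 hatching gland genes, 6 rose, among them the hatching enzyme genes *he1a* and *he1b*, close copies of each other, and 1, *klf17*, fell. Of 57 claudins and connexins, which form tight and gap junctions, 13 rose and 5 fell. The share that fell, 8.77%, was near the 8.66% of all genes, and the share that rose was 22.8% against 16.3%. *cx43.4*, a connexin of the early embryo, had 47.5 and 49.8 RPKM at T3, against 206 and 266 at T1, while the related *cx43* had 8.82 and 8.52 at T3, against 0.483 and 0.295 at T1. Without T3 replicate 1 or T3 replicate 2, 6 and 6 epithelial genes were called higher and 4 and 4 lower, 3 and 3 hatching gland genes higher, 1 and 0 ionocyte genes lower (3 at an unadjusted *p* under 0.05 by limma for the 0), and 9 and 9 claudins and connexins higher and 1 and 1 lower. Without T1 replicate 2, 9 epithelial genes were called higher and 15 lower. Claudins and connexins called lower numbered 9 with a pseudocount of 0.1, 8 after quantile normalization and 3 with a pseudocount of 1, and by limma voom on recovered reads 5 ionocyte genes were lower.

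Organs of the trunk were mixed. Of 47 liver and plasma protein genes, 24 rose and 4 fell (median 1). *apoea*, an apolipoprotein E gene, had 171 and 159 RPKM at T3, against 2.82 and 0.975 at T1. *fga*, which encodes a fibrinogen chain, and *c9*, a complement gene, rose by log2 differences of 5.03 and 5.4, and the plasma protein gene *fetub* was lower, with 446 and 397 RPKM at T3, against 869 and 941 at T1. Of 34 pancreas and gut genes, 8 rose and 7 fell. *ptf1a*, a factor of exocrine pancreas and of neurons, had 2.04 and 1.87 RPKM at T3, against 0.0768 and 0.0739 at T1, and *fabp2*, a fatty acid binding protein of gut and yolk, had 56.0 and 57.8 at T3, against 226 and 258 at T1. Of 35 genes of the pronephros, the embryonic kidney, 11 rose and 8 fell. *cdh17*, a kidney cadherin, rose by 2.35 and *ret*, a receptor of the duct, by 1.81, while the kidney specifiers *hnf1ba* and *hnf1bb* fell by 2.3 and 2.38 on the log2 scale. Of 54 genes of cilium assembly and motility, 2 rose and 5 fell. They include *dand5*, a left-right patterning gene (0.0946 and 0.0300 RPKM at T3, 3.17 and 1.29 at T1), and shares of 3.7% and 9.26% were near or under those of all genes. With T3 replicate 1 or T3 replicate 2 left out, 14 and 14 liver genes were called higher and 1 and 1 lower, 4 and 4 kidney genes higher and 3 and 3 lower, 6 and 5 pancreas and gut genes higher and 2 and 2 lower, and 0 and 0 cilium genes higher and 1 and 1 lower (1 and 2 higher at an unadjusted *p* under 0.05 by limma). With a pseudocount of 0.1, 13 pancreas and gut genes were called higher and 11 lower, and with a pseudocount of 1, 7 kidney genes were higher. Cilium genes called lower numbered 2 with a pseudocount of 1, 9 with one of 0.1 and 8 after quantile normalization, and liver genes called lower 1 after median centring and 7 after quantile normalization.

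Hox genes, which assign position along the trunk, changed in both directions. Of 49, 6 rose and 11 fell (median -0.16). The share that rose, 12.2%, was under the 16.3% of all genes, while the share that fell was 22.4% against 8.66%. Of the 6 that rose, 5 (*hoxc12a*, *hoxc13a*, *hoxc12b*, *hoxa13a* and *hoxb13a*) belong to the posterior end of their clusters, and the other was *hoxc1a*. *hoxb1a*, a hindbrain gene, had 2.67 and 2.44 RPKM at T3, against 16.4 and 27.2 at T1, and *hoxb7a* had 3.95 and 3.50 at T3, against 26.6 and 30.6 at T1. *hoxc12a*, of the tail end of the cluster, had 3.35 and 3.65 RPKM at T3, against 0.198 and 0.239 at T1, and its neighbor *hoxc13a* had 1.85 and 1.91 at T3, against 0.0789 and 0.0190 at T1. The groups do not overlap for these 4 genes. The rise of *hoxc12b*, the copy on chromosome 11, was 1.92 on the log2 scale. Without T1 replicate 1, 10 Hox genes were called higher, and without T3 replicate 2, 4 were called lower.

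Genes that build ribosomes fell as a group, while the ribosomal proteins themselves did not pass the test. Of 88 ribosome biogenesis genes, 79 fell and none rose by limma at either the adjusted or the unadjusted *p* (median -1.66), and the stages did not overlap for any of the 88. *npm1a*, a nucleolar chaperone gene, had 147 and 148 RPKM at T3, against 806 and 1047 at T1 (log2 difference -2.64, SE 0.16, adjusted *p* = 0.00064, limma). *ncl*, the nucleolin gene, had 559 and 526 RPKM at T3, against 2161 and 2429 at T1. *heatr1* and *mybbp1a*, which act in transcription and processing of pre-rRNA, fell by 2.04 and 2.18 on the log2 scale. Of 79 cytosolic ribosomal protein genes, 0 were called in either direction by limma, at the adjusted or the unadjusted *p*, with differences between -0.31 and 0.56 and a median of 0.05, and 2 had an adjusted *p* under 0.05 without the minimum fold. Their summed level was 36300 and 37670 RPKM at T3, against 37260 and 33450 at T1, so that the groups overlap. Of 58 DNA replication genes 12 fell and none rose by limma at either *p* (median -0.64). Those that fell include *gmnn* (15.7 and 16.5 RPKM at T3, 55.2 and 56.4 at T1) and the licensing gene *mcm3* (55.4 and 58.3 at T3, 158 and 150 at T1). Of 68 cyclin and mitosis genes 4 fell and 1 rose, a smaller share than over all genes. Their median was -0.43 and 12 of the 68 differences were above 0, so that most stood lower at T3 without being called. Of 91 splicing and hnRNP genes 28 fell and 7 rose (median -0.81). The core snRNP genes *snrpb* and *snrpd1* fell by 1.44 and 1.37, while *rbfox1*, a splicing regulator of neurons and muscle, had 7.85 and 7.75 RPKM at T3, against 0.182 and 0.103 at T1, and *celf2* and *mbnl2*, also tissue splicing regulators, rose by 2.34 and 1.94. When T3 replicate 1 or T3 replicate 2 was left out, 5 and 4 replication genes were called lower, 1 and 1 cyclin genes lower and 0 and 0 higher (1 and 1 at an unadjusted *p* under 0.05 by limma, and 3 without T1 replicate 1), and 7 and 9 splicing genes lower and 2 and 2 higher. After quantile normalization 15 splicing genes were called lower.

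**Figure D3:**
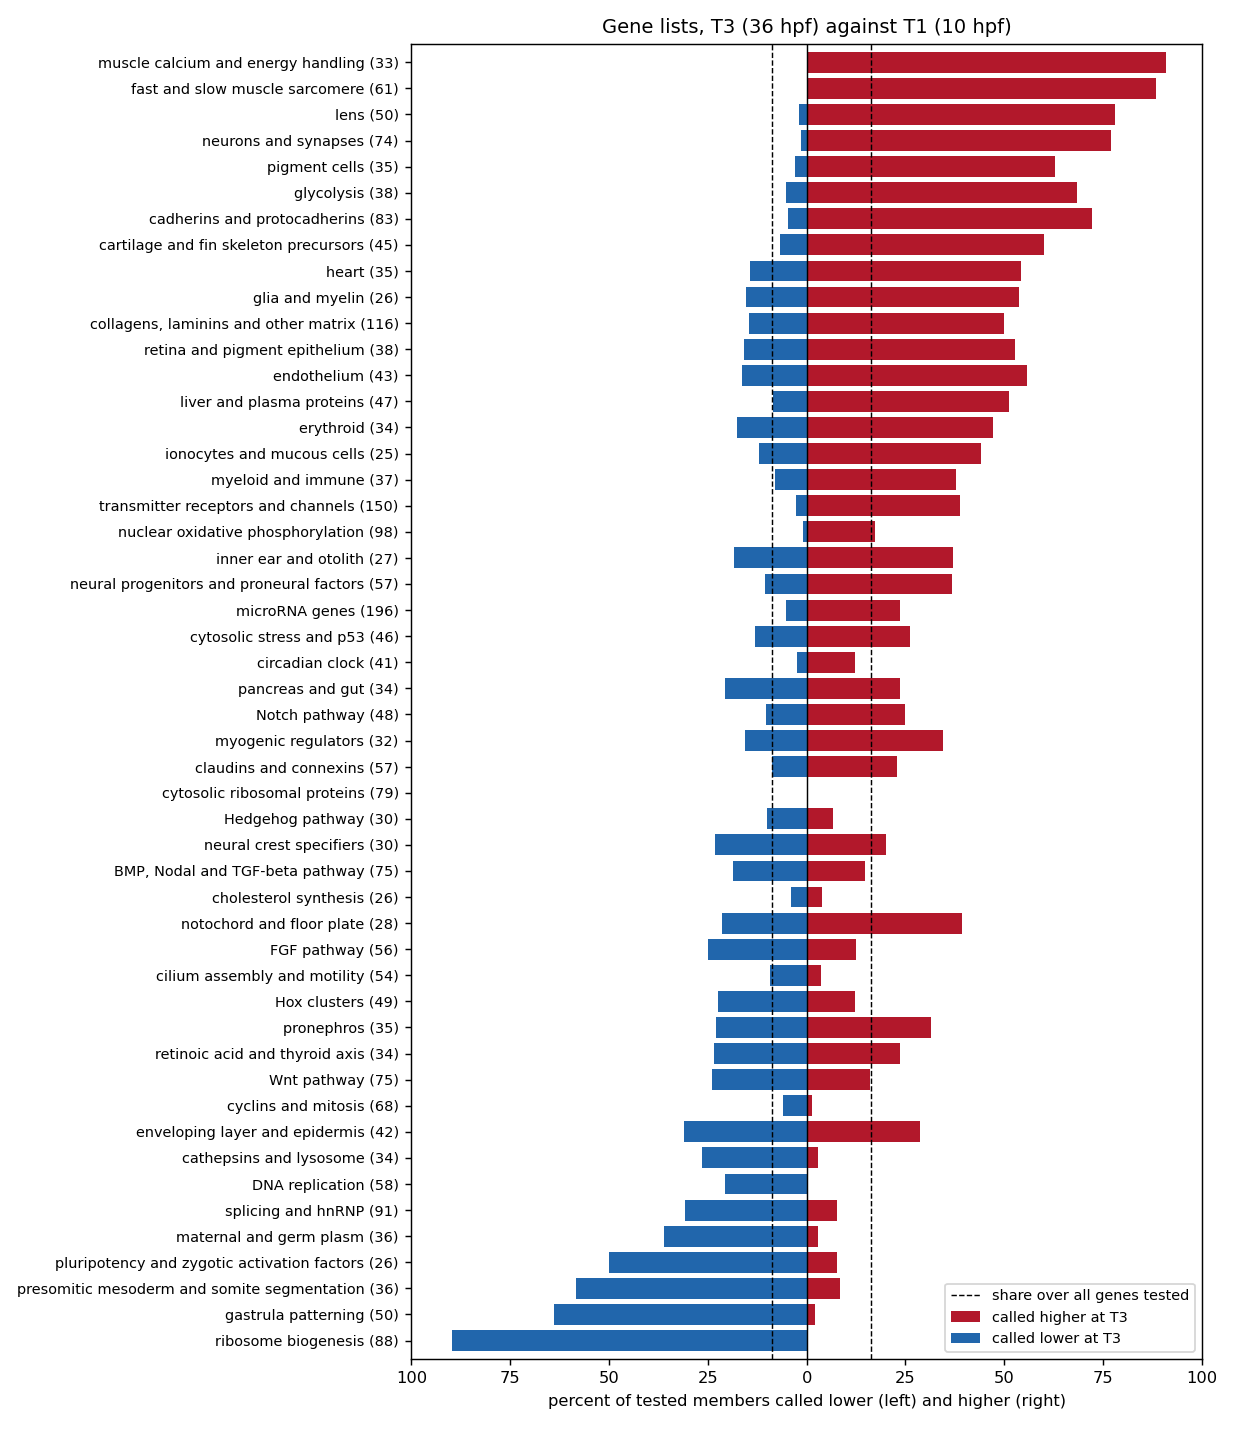
For each list of at least 20 tested genes (number in parentheses), the bars give the percent of tested members called higher at T3 (red, right) and lower at T3 (blue, left), and dashed lines mark the shares over all genes tested (16.3% and 8.66%). Lists are ordered by their median log2 difference, with muscle calcium and energy handling (90.9% higher) at the top and ribosome biogenesis (89.8% lower) at the bottom.

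Among genes of energy metabolism, most of those of glycolysis rose in RNA level. Of 38 glycolysis genes, 26 rose and 2 fell (median 2.18). *aldoab*, the muscle aldolase gene, had 86.8 and 98.7 RPKM at T3, against 0.820 and 0.322 at T1, and *pgam2*, the muscle phosphoglycerate mutase gene, had 39.5 and 46.9 at T3, against 0.630 and 0.412 at T1. *hkdc1*, a hexokinase gene, fell by 4.01 on the log2 scale. Of 98 nuclear genes of oxidative phosphorylation 17 rose and 1 fell, and the share of rises, 17.3%, was near that of all genes. Most of the list still stood higher at T3 by less than the minimum fold. Its median was 0.51, against 0.00 over all genes, and 85 of the 98 differences were above 0. The summed level of the list was 4020 and 4301 RPKM at T3, against 3024 and 2482 at T1. The T1 libraries differed here as well, replicate 1 minus replicate 2 having a median of 0.28 on the log2 scale. Of 39 genes of the mitochondrial genome, none rose at either *p* and 17 fell by limma, 15 of them tRNA genes and 1 protein-coding, *ND3* (81.1 and 94.4 RPKM at T3, 312 and 275 at T1). The mitochondrial genome took 2.33% and 2.3% of the gene reads at T3, against 3.72% and 3.38% at T1. This share includes the rRNA genes *mt-rnr2* and *mt-rnr1*, which had the highest mean RPKM of all genes at both stages and were not called. The libraries were depleted of ribosomal RNA, and the effect of this on the share was not tested. The 13 protein-coding genes had a median log2 difference of -0.31. Of 26 cholesterol synthesis genes, 1 rose and 1, *cyp51*, fell. In fits without T3 replicate 1 or T3 replicate 2, 4 and 3 oxidative phosphorylation genes were called higher and 0 and 0 lower (1 and 1 at an unadjusted *p* under 0.05 by limma), and without T1 replicate 1 or T1 replicate 2, 22 and 12 were higher and 0 and 3 lower. No cholesterol gene was called without either T3 library (1 higher and 1 lower at an unadjusted *p* under 0.05 by limma), and 2 were higher without either T1 library. With a pseudocount of 0.1, 4 cholesterol genes were called higher.

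Stress genes changed in both directions. Of 46 genes of cytosolic stress and p53, 12 rose and 6 fell. The small heat shock gene *hspb1* (chromosome 5, 3568125 to 3574199) had 29.2 and 34.2 RPKM at T3, against 598 and 941 at T1, a fall of 4.55 on the log2 scale (SE 0.25). The inducible chaperone gene *hsp70.1* had 108 and 282 RPKM at T3, against 28.1 and 7.24 at T1, and *hsp70l* had 60.7 and 251 at T3, against 19.4 and 6.78 at T1. The stages do not overlap for either, but libraries of 1 stage stand several-fold apart. In both stages these 2 genes and *hsp70.3* shared the order of the libraries, and they are close copies. Of 34 cathepsin and lysosome genes, 9 fell and 1, *ctsz*, rose. *ctsc*, a cathepsin gene (chromosome 15, 43604031 to 43625549), had 3.71 and 3.98 RPKM at T3, against 161 and 199 at T1, and *ctsll* had 5.309 and 4.396 at T3, against 142 and 144 at T1. Of 41 circadian clock genes, 5 rose and 1 fell, under the shares over all genes in both directions. Without T3 replicate 1 or T3 replicate 2, 3 and 4 stress genes were called higher and 3 and 4 lower, 5 and 5 cathepsin and lysosome genes lower and 0 and 0 higher (2 and 2 at an unadjusted *p* under 0.05 by limma), and 1 and 1 clock genes higher and 0 and 0 lower (1 and 1 at the unadjusted *p*). Without T1 replicate 1, 3 cathepsin and lysosome genes were called higher. By limma voom on recovered reads, 8 clock genes and 3 cathepsin and lysosome genes were called higher.

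Other large falls lay outside these lists. The steroid synthesis gene *hsd3b2* had 1.07 and 1.07 RPKM at T3, against 53.4 and 77.8 at T1. *emilin3a*, a matrix gene of the notochord sheath, had 0.542 and 0.491 RPKM at T3, against 48.9 and 34.4 at T1. *nr6a1a*, an orphan nuclear receptor gene, had 1.64 and 1.46 RPKM at T3, against 54.3 and 94.2 at T1. The groups do not overlap in any of them. The bile salt transporter gene *abcb11a* and the urate oxidase gene *uox* fell by 5.06 and 4.81 on the log2 scale.

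The libraries of 24 h post fertilization show how far each change had gone by T2. Along the log2 difference between T1 and T3, taken as 100%, the median gene called higher had reached 70% at T2 and the median gene called lower 62.3%. The T2 level lay beyond the T3 level for 649 of the 4112 higher and 98 of the 2181 lower genes. Lists differed in this. Lens genes had reached 9.9%, with 2 of 39 past the midpoint, whereas sarcomere genes had reached 82.7%, heart genes 97.7% and endothelial genes 106.3%. Among genes that fell, those of gastrula patterning had reached 76.6%, ribosome biogenesis genes 48.2% and cathepsin genes 41.4%. *crybb1l1* averaged 0.440 RPKM at T1, 12.1 at T2 and 211 at T3, and *cdh5* averaged 0.181, 7.52 and 7.92 RPKM at T1, T2 and T3. The 6 Hox genes that rose had reached 122.2%, that is, they stood higher at T2 than at T3 in 5 of 6 cases. *myog*, which was not called between T3 and T1, averaged 1.32 RPKM at T1, 15.4 at T2 and 1.98 at T3, so that the comparison of the outer stages does not show its peak. These are descriptions of means of 2 libraries, with no test.

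**Figure D4:**
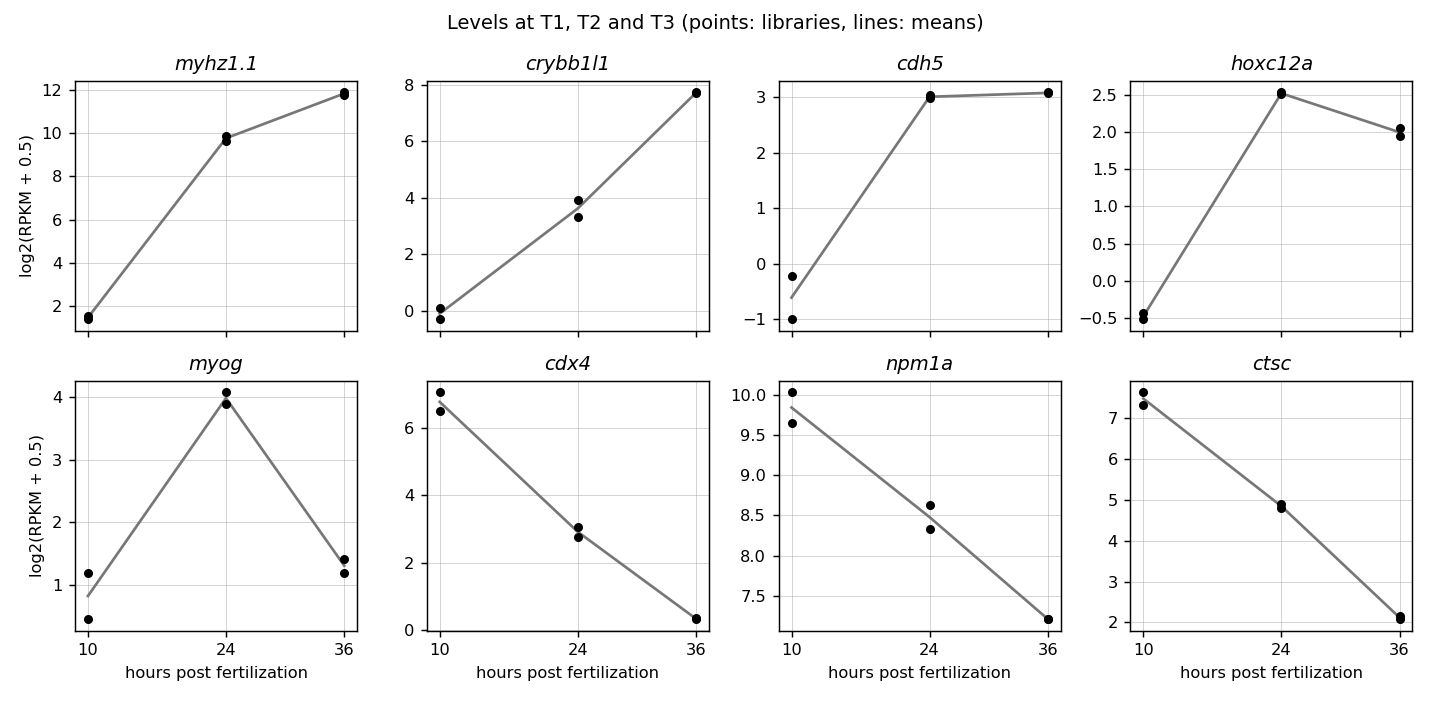
Levels of 8 genes as log2(RPKM + 0.5) at 10 h (T1), 24 h (T2) and 36 h (T3) post fertilization, with 1 point per library and a line through the stage means. *cdh5* and *hoxc12a* were near or beyond their T3 level at T2, *crybb1l1* rose mostly after T2, *myog* peaked at T2, and *cdx4*, *npm1a* and *ctsc* stood lower at each later stage.

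In the lncRNA table, 2053 of 7971 transcripts tested were called (25.8%), 1252 higher (15.7%) and 801 lower (10%) at T3, at 967 and 678 loci, and the stages did not overlap for 70.9% of the transcripts tested. Of 5920 assembled transcripts, 1108 were higher (18.7%) and 656 lower (11.1%), and of 2051 annotated lncRNAs 144 were higher (7.02%) and 145 lower (7.07%). Reads in assembled transcripts per 100 reads in genes numbered 4.79 and 4.76 at T3, against 3.22 and 3.34 at T1. Of the values of the assembled transcripts, 29.7% to 32.9% came out as whole reads, and their lengths or counting may thus differ from those of genes. Transcripts called higher had a median exon length of 1001.5 bases and those called lower of 669 bases, against 832 over all tested. With T3 replicate 1 or T3 replicate 2 left out, 0 were called in either direction at the adjusted *p* by limma, and 1126 and 1176 were higher and 655 and 671 lower at an unadjusted *p* under 0.05.

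The largest rise belonged to a pair of opposite transcripts on chromosome 13. TCONS_00058330 (15425351 to 15432566, plus strand) had 549 and 625 RPKM at T3, against 2.63 and 1.77 at T1 (log2 difference 7.78, SE 0.25, adjusted *p* = 0.00075, limma). LOC110440174, which lies antisense to it, had 664 and 670 RPKM at T3, against 3.54 and 2.13 at T1. Whether they share reads was not tested. LOC110438092 on chromosome 18 (22651603 to 22657335) had 155 and 165 RPKM at T3, against 0.875 and 0.267 at T1, and LOC110438008 on chromosome 16 had 132 and 156 at T3, against 0.854 and 0.339 at T1. Their nearest genes outside the lncRNA table, *bcar1* and *sec16a*, were not called. LOC101885256 on chromosome 2 (59094418 to 59116905) had 50.7 and 42.4 RPKM at T3 and no reads in either T1 library, so that it was at least 243-fold higher when 3 reads per T1 library are taken as the floor. It lies 7659 bases from the microRNA gene *mir9-7*, and TCONS_00027520 on chromosome 5 (35.6 and 32.1 RPKM at T3, 0.143 and 0 at T1) lies 5040 bases from *mir9-5*. Both microRNA genes were also higher at T3.

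The falls reached differences of up to 5.58 on the log2 scale. TCONS_00059617 on chromosome 13, 555 bases from the serum response factor gene *srfb*, had 0.263 and 0.229 RPKM at T3, against 21.6 and 57.2 at T1. TCONS_00119659, on a scaffold outside the chromosomes, had 18.03 and 15.17 RPKM at T3, against 1774 and 284 at T1. TCONS_00092911 on chromosome 22 had 0.689 and 0.751 RPKM at T3, against 22.8 and 30.9 at T1. The stages do not overlap in these 3, although the T1 libraries of TCONS_00119659 stand several-fold apart. Among annotated lncRNAs, LOC108191631 on chromosome 11, 5276 bases from the Wnt ligand gene *wnt4a*, had 0.283 and 0.291 RPKM at T3, against 9.96 and 13.4 at T1, and LOC108191720 on chromosome 12 (27120118 to 27124147), opposite *hoxb8b*, had 0.200 and 0.275 at T3, against 3.11 and 3.58 at T1. The genes *wnt4a* and *hoxb8b* were not called.

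The lncRNAs were also set beside their neighbors. For 7275 tested transcripts of the lncRNA table, the nearest gene outside that table lay within 100 kb, exon to exon. That gene was called higher for 20.9% of them and lower for 10.5%. For the 1163 lncRNAs called higher, the nearest gene was higher in 758 cases (65.2%) and lower in 13 (1.12%). For the 718 called lower, it was lower in 259 cases (36.1%) and higher in 61 (8.5%), and for the 5394 not called the shares were 13% higher and 9.1% lower. Where an lncRNA exon lay on an exon of the opposite strand, 111 of 137 neighbors of higher lncRNAs were higher and 0 lower, and 82 of 102 neighbors of lower lncRNAs were lower and 0 higher. Such pairs could share reads if strand was not used in counting. Without overlap, at 10 to 100 kb, 59.9% of the neighbors of 394 higher lncRNAs were higher, against 18.7% of those of 1474 lncRNAs not called. For 239 lower lncRNAs, 21.3% of the neighbors were lower, against 11.6%. Assembled transcripts made up 355 of the 394, with 63.7% of neighbors higher against 20.2% for assembled transcripts not called. For 39 annotated lncRNAs called higher the share was 25.6%, against 15.6% of 463 not called. For 40 annotated lncRNAs called lower, 7.5% of the neighbors were lower, against 9.29%. Neighbors are described with no test, since transcripts of 1 locus share a neighbor, and unannotated ends of a gene that were assembled as separate transcripts were not told apart from lncRNAs. Assembled transcripts lay antisense to annotated lncRNAs in 466 pairs, which hold 293 annotated transcripts, so that several assembled transcripts can share 1 partner. Over all pairs the annotated member was higher in 88 and lower in 94. In 103 pairs, with 47 annotated transcripts, the assembled member was higher, and the annotated one was higher in 87 and lower in 0. In 80 pairs, with 57 annotated transcripts, the assembled member was lower, and the annotated one was lower in 67 and higher in 0. These pairs, too, could share reads.

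**Figure D5:**
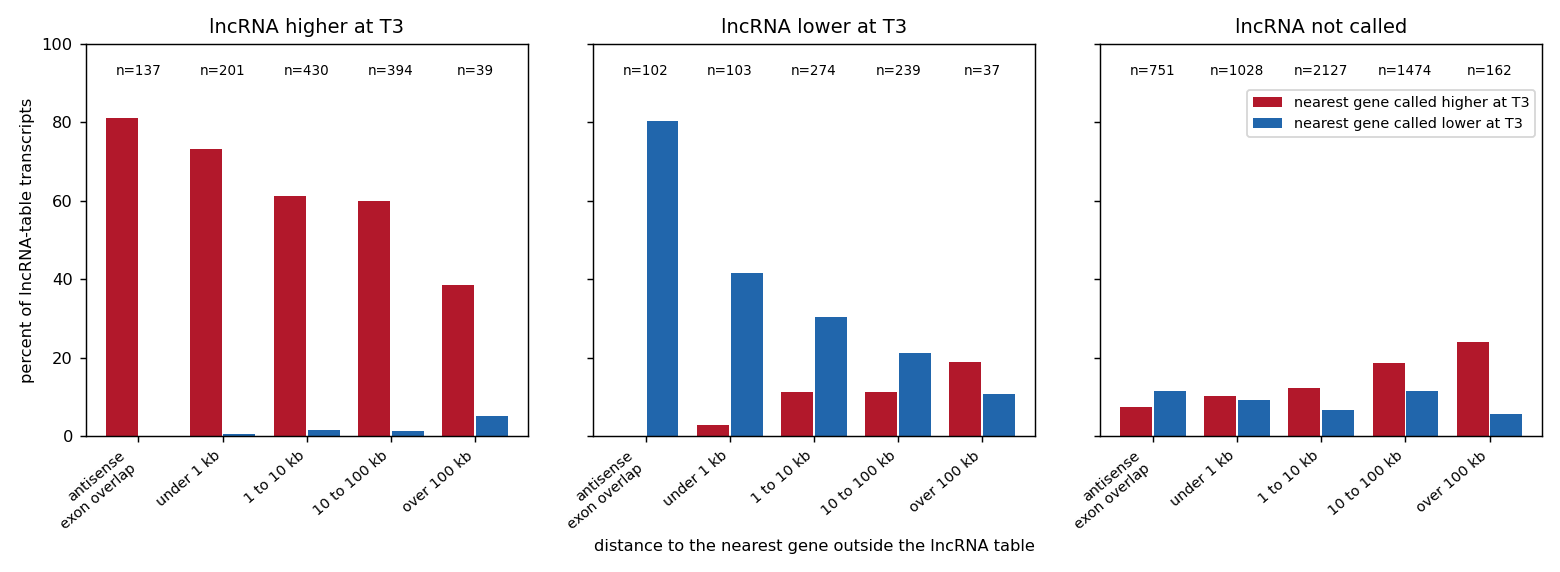
Percent of lncRNA-table transcripts whose nearest gene outside the table was called higher (red) or lower (blue) at T3, for lncRNAs higher, lower and not called at T3 (panels) and by position of the nearest gene (x axis; n is the number of transcripts). At 10 to 100 kb 59.9% of the neighbors of higher lncRNAs were higher, against 18.7% for lncRNAs not called. Of these 394 higher lncRNAs, 355 were assembled transcripts, and for the 39 annotated ones the share was 25.6%. For antisense overlaps the shares were 81% and 7.46%.

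The study describes its lncRNA and mRNA panels as differentially expressed in these samples, so their counts are not independent evidence. It took its muscle genes as related to muscle development, and the *gas5* neighborhood genes of the mRNA panel also for lying within 100 kb of *gas5*. The lncRNA *gas5*, known in mammals as a host of small nucleolar RNAs, lies on chromosome 8 (16609829 to 16613482, minus strand). It had 3.90 and 4.74 RPKM at T3, against 12.8 and 13.3 at T1 (log2 difference -1.50, SE 0.18, adjusted *p* = 0.0059 by limma in the lncRNA table). The stages do not overlap, and the gene 825 bases away, *tor3a*, was not called. The assembled transcript TCONS_00040562, antisense to *gas5*, was not called either (log2 difference -0.64), and this pair, too, could share reads. Of 11 lncRNAs of the study's panel, 7 rose, 3 fell (*gas5*, LOC103910859 and LOC100536039) and LOC101884451 was not called. ch73-21g5.7, 2082 bases from the Notch target gene *her4.2* on chromosome 23, had 13.6 and 12.7 RPKM at T3, against 0.120 and 0 at T1. LOC101884456 on chromosome 12, 3242 bases from the globin gene *hbbe2*, had 0.980 and 0.829 RPKM at T3 and no reads at T1. Both neighbors were also higher at T3. Of 8 mRNAs of the panel 4 rose, among them *pvalb4* (74.4 and 76.5 RPKM at T3) and the slow troponin gene *tnni1al* (35.1 and 41.1 RPKM at T3). Neither had reads at T1, and they were at least 707-fold and 490-fold higher with 3 reads per T1 library as the floor. Of the *gas5* neighborhood genes, *calr*, which encodes the calcium-binding chaperone calreticulin, had 112 and 88.1 RPKM at T3, against 37.8 and 20.6 at T1, and rose by a log2 difference of 1.81 (SE 0.32, adjusted *p* = 0.0099 by limma). *rpe65b* had 4.06 and 4.56 RPKM at T3, against 2.077 and 2.097 at T1, and was not called, since its log2 difference of 0.89 stayed under the minimum of 1 (adjusted *p* = 0.0060 by limma). The stages do not overlap in either gene. *osbpl9*, *tor3a* and *ch211-198n5.11* were not called. Of 11 muscle genes of the study 4 rose (*myhc4*, *pax7a*, *mef2ca* and *myf6*) and 1 (*myf5*) fell, and *pax3a*, *igf2a*, *myog*, *nkx2.5*, *srfa* and *myod1* were not called. When T3 replicate 1 or T3 replicate 2 was left out, fewer genes of the muscle and mRNA panels were called higher. In the gene table, fewer lncRNAs of the panel were then called lower. In the lncRNA table, from which the *gas5* call above comes, the lncRNA panel kept no call in these fits.

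MicroRNA genes, whose values here are reads over short hairpin genes in long-RNA libraries and not mature microRNAs, also changed. Of 196, 46 rose and 10 fell (median 0.33). The share that rose was 23.5% against 16.3% of all genes, and the share that fell, 5.1%, was under the 8.66% of all genes. Among them, 32 had no reads at T1 and 3 had none at T3. Those with a mean above the 3-read floor at the other stage were set to their bound, which gave a median of 0.27. The rest were under that floor at both stages and kept their fitted value. *mir1-1*, of the muscle microRNA miR-1, had 111 and 106 RPKM at T3, against 0.433 and 0.208 at T1. All 7 genes of the neural microRNA miR-9 were called higher, *mir9-2* with 34.7 and 33.5 RPKM at T3, against 0.674 and 0.487 at T1. The groups of both stand apart. *mir133b* and *mir202* fell, the last with no reads at T3 against 2.72 and 3.78 RPKM at T1. In fits without T3 replicate 1 or T3 replicate 2, 30 and 28 were called higher and 2 and 2 lower. By limma voom on recovered reads 28 were higher and 2 lower, although voom called more genes higher over all genes (5956 against 4112). The excess of rises thus depends on the method. With a pseudocount of 1, 37 were higher and 4 lower.

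Chromosome 4 had its own balance of calls. On it, 7.65% of 1686 genes tested were higher and 16.2% lower, against 16.3% and 8.66% over all genes, and in the lncRNA table, of 867 tested, 5.77% were higher and 19% lower. The long arm of this chromosome is known for repeats and for gene families with many close copies, whose reads can be split.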

How the data were processed

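Ribosomal RNA-depleted stranded total RNA libraries of whole embryos were sequenced with paired ends, and the authors aligned the reads with STAR, counted them with featureCounts and deposited RPKM values. The submitters' processing notes name the GRCz11 build. All gene-table RPKM values correspond to whole reads (tolerance 0.01). No source used here says how reads were counted over assembled transcripts.

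From the deposited RPKM, log2(RPKM + 0.5) was fitted with limma 3.58.1 (trend and robust moderation) in R 4.3.3, separately for each table, on features with at least 0.1 RPKM in at least 2 of the 4 libraries. Calls needed an adjusted *p* (Benjamini-Hochberg) under 0.05 and a log2 difference beyond 1 in size. Because 0.5 RPKM is added, the fold change of low features is smaller on this scale than the ratio of their RPKM values. For the microRNA genes set to a bound, the 3-read floor lay above 0.5 RPKM. There a fitted difference can rest on few reads: *mir100-1*, with a floor of 0.703 RPKM, was at least 1.04-fold higher. Tables and figures were made with Python 3.11.15, pandas 2.3.3 and matplotlib 3.10.9. On simulated data for this comparison, 91% of genes and 66% of lncRNA-table transcripts changed by a log2 of 1.5 were called, and all of those changed by 3. The changed features, 100 per fold, came from those above 1 RPKM at T1, and all features of a stage had the same spread. Features called higher had median T1 levels of 0.424 RPKM (genes) and 0.282 RPKM (lncRNA table), and the rates do not cover such low features.

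The gene lists were textbook lists, and they and the comparison were chosen with earlier results of these data known. Named were the 15 largest rises and falls among called mRNAs above 1 RPKM in each library of the higher stage and without overlap, the 10 most abundant genes of each stage, up to 4 called members of each list in its main direction and 3 against it, the study's panels, and the 10 largest rises and falls of assembled and of annotated lncRNAs. Not all of them appear in the text. Other members named were chosen after their values were seen. Other pseudocounts, filters, scalings and thresholds, a replicate block, all 6 libraries in 1 fit, limma voom on recovered reads and leaving out each library were tried. Intervals and floors cover counting error only. Sequences and the results of a few genes are not reported here.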

Additional observations from a re-analysis of the deposited data

How the results depend on the processing

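No called gene or lncRNA among those chosen for naming changed direction under any alternative run. Without T3 replicate 1 or T3 replicate 2, where the spread comes from the T1 libraries alone, 235 and 229 of 322 called genes and 0 and 0 of 49 called lncRNAs kept their call. Over the 4 fits that each leave out a library, 2090 to 4592 genes were called higher and 621 to 2519 lower, and 0 to 1451 transcripts of the lncRNA table higher and 0 to 1088 lower. With no minimum fold change, 6979 genes were called higher and 5929 lower. A pseudocount of 1 left 528 transcripts of the lncRNA table lower. The replicate block, which the numbers do not warrant since deviations of same-numbered T3 and T1 libraries correlated at -0.06 over 12127 genes, gave 4163 genes higher and 2247 lower and 1248 and 818 transcripts, and all 322 and 49 named calls were kept. Genes not called that changed sign were *ch211-198n5.11* (-0.18 after quantile normalization, -0.0122 to 0.42 with a library left out), *igf2a* (-0.44 to 0.089 with a library left out), *mt-rnr1* (0.31 after quantile normalization), *myod1* (0.021 after median centring, -0.58 to 0.38 with a library left out), *nkx2.5* (-0.21 after quantile normalization), *osbpl9* (0.0036 after median centring) and *ptmab* (0.022 after quantile normalization, -0.40 to 0.0074 with a library left out). The cause was not tested for these changes. Limma voom on recovered reads called 5956 genes higher and 3188 lower.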
